A study of Mus musculus with 6 samples.

Results

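Notch signalling passes between neighbouring cells, and its receptors, ligands and target transcription factors were followed here in cultured granulosa cells of mice lacking the receptor of interleukin-22. The 10 genes described are the receptors Notch1, Notch2 and Notch3, the ligands Jag1, Jag2 and Dll1, and the targets Hes1, Hey1, Hey2 and Heyl. They were taken by exact gene symbol from the deposited count and FPKM tables, where each symbol had 1 row among 55860 genes. Granulosa cells are the somatic cells around the oocyte. Il22r-/- and Il22r+/+ cells of Mus musculus ovary had 3 libraries each, in a series on how this cytokine bears on ovulation in a polycystic ovary model. All cells had been separated on a density gradient and kept for 12 h in serum-containing medium before RNA was extracted. Of the mice, the labels give the genotype only: the sources used here state no strain, age, deleted exons or number of animals behind a library.

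In the Notch pathway a ligand on 1 cell binds a receptor on its neighbour, the receptor is cut by an ADAM protease and then by the gamma-secretase complex, and the freed intracellular domain enters the nucleus. There it joins the DNA-binding protein RBPJ and a Mastermind co-activator and switches on genes of the Hes and Hey families, which encode repressors of the basic helix-loop-helix type. In the mouse ovary, granulosa cells are known to express Notch2 and respond to Jagged ligands, and the pathway is known for its part in the assembly and growth of follicles.

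Hes1 and Hey1, both targets of the pathway, differed most between the genotypes and in opposite directions. Hes1 fell 2.16-fold and Hey1 rose 2.91-fold in Il22r-/- cells. Among the receptors Notch1 rose, while Notch2 and Notch3 fell. No ligand passed the test, nor did Hey2 and Heyl. Of the 10 genes 9 had enough reads for the test and 5 were called, 2 higher and 3 lower. This share is to be read against 45.7% called among all 15227 tested genes, 23.6% being higher and 22.1% lower. The median log2 difference of the 9 tested genes was -0.27, against 0.03 over all tested genes. A call is an adjusted p under 0.05 in edgeR's quasi-likelihood test with Benjamini-Hochberg adjustment over all tested genes, and every log2 difference is Il22r-/- minus Il22r+/+. Levels are given as CPM (read counts scaled by TMM-corrected library size) when genotypes are compared, and as FPKM, which also divides by gene length, when genes are compared.

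**Figure D1:**
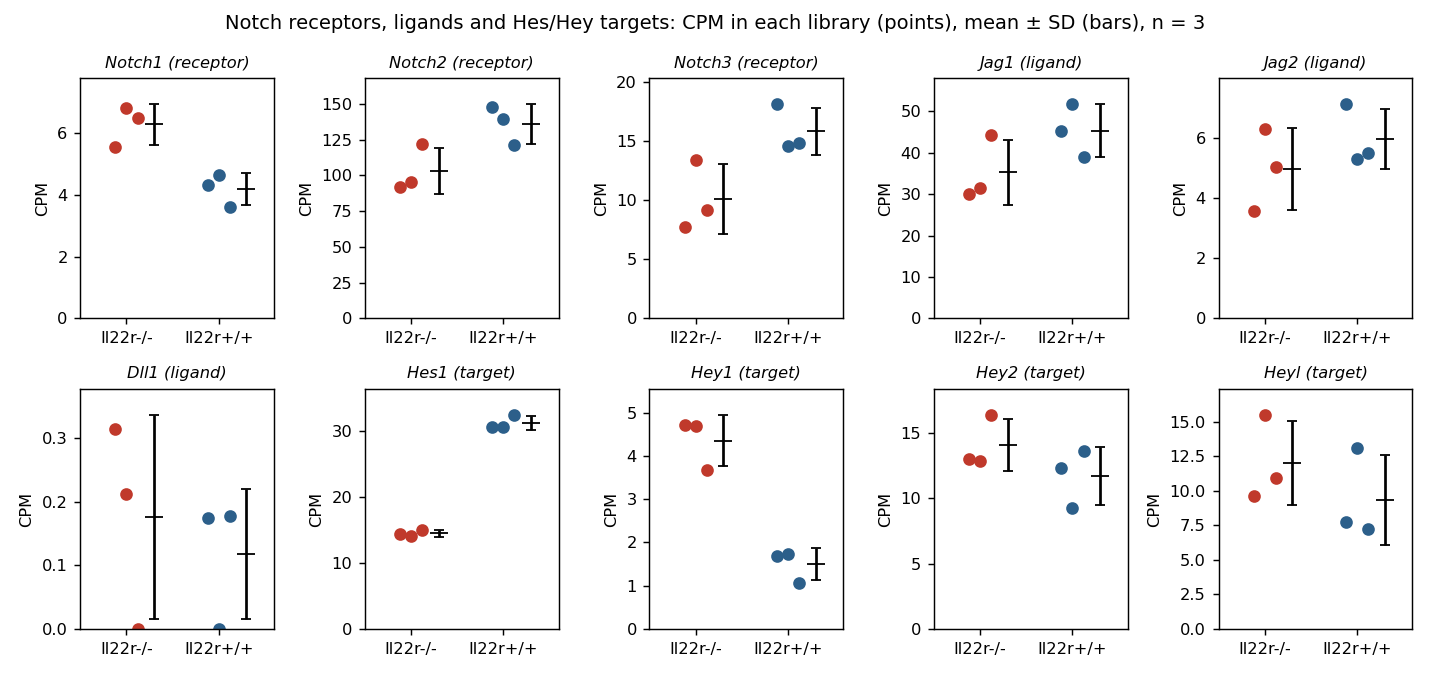
CPM of each of the 10 genes in each library (points; Il22r-/- left in red, Il22r+/+ right in blue), with mean ± SD beside them (n = 3 per genotype). The points of Hes1, Hey1, Notch1 and Notch3 do not overlap between genotypes, and those of the other 6 genes do. Of all tested genes, 56.0% do not overlap.

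Counted reads per library (M, mega-reads) were 14.95 M to 18.12 M for Il22r-/-, and for Il22r+/+ 17.43 M to 17.7 M, the smallest being Il22r-/- replicate 3. That library also stood apart on the second principal component of the 500 most variable genes, at -14.5 against -1.22 to 8.93 for the others. Fewer cells of a type and less RNA per cell cannot be told apart in bulk samples of this kind. Granulosa markers had a summed level of 9816 to 10821 CPM in Il22r-/- and 10471 to 11494 CPM in Il22r+/+. Of 13 tested, 6 rose and 4 fell, 76.9% called against 45.7% of all tested genes. Fshr, a marker of this list, had 95, 109 and 109 reads in Il22r-/- and only 1, 7 and 5 in Il22r+/+. Its log2 difference was 4.50 ± 0.41 (edgeR adjusted p = 1.45e-05), and it entered the test only through its Il22r-/- reads. Nr5a2, Amhr2, Cyp11a1, Inhba and Esr2 also rose (log2 differences 1.73, 1.47, 1.33, 0.70 and 0.30). The 4 that fell were Serpine2, Gja1, Nr5a1 and Foxl2 (-1.70, -0.56, -0.53 and -0.47). Serpine2 averaged 724 CPM in Il22r-/- and 2361 CPM in Il22r+/+. The aromatase gene Cyp19a1 was too low for the test, at 0 to 0.0656 CPM in Il22r-/- and 0.179 to 1.48 CPM in Il22r+/+. Its summed count was 1 for Il22r-/- against 36 for Il22r+/+. Unlike Fshr, it was thus higher in every Il22r+/+ library than in any Il22r-/- one. Il22ra1, taken as the disrupted gene, was covered by 5, 2 and 0 reads in the Il22r-/- libraries and by 1, 5 and 4 in the Il22r+/+ libraries, too few to check the genotype labels.

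Sequence was looked at where the pathway's own factors could bind. The upstream windows of Hey2, Jag1 and Notch2 are shown because they hold the only matches among the tested genes to 3 short motifs. The motifs, searched on both strands of the 250 bases before the RefSeq start (assembly GRCm38.p6), were the RBPJ core TGGGAA with its longer form GTGGGAA, the E-box CACGTG, and CACGCG, a site that Hes and Hey proteins are known to bind. The table held 7 of the 10 genes, and Hes1, Hey1 and Heyl are named only. Each window is printed 5′ to 3′ on the gene's strand up to the base before the deposited gene begins, with matches in capitals.
Hey2 (chr10:30842802-30843033, minus strand): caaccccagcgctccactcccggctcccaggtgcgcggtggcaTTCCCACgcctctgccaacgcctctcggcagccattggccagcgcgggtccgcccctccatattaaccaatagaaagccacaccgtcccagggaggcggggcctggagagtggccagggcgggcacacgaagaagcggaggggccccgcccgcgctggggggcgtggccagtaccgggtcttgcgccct
Jag1 (chr2:137116645-137116770, minus strand): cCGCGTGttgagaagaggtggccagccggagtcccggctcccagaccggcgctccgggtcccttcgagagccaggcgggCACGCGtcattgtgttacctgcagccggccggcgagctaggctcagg
Notch2 (chr3:98013288-98013526, plus strand): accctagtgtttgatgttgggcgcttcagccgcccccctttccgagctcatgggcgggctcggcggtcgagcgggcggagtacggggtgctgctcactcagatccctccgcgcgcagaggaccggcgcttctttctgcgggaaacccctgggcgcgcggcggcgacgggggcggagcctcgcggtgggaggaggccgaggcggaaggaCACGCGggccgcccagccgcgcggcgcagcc
In Hey2 the capitals mark the RBPJ core on the opposite strand, with its longer form, starting 207 bases before the RefSeq start. In Jag1 they mark CACGCG at 171 bases before the start and, on the opposite strand, at 249 bases. In Notch2 they mark CACGCG at 42 bases. Of 32817 upstream windows in the whole table, 21.6% hold TGGGAA, 5.42% the longer form, 6.02% CACGTG and 7.61% CACGCG. Among the tested genes, Notch1, Notch3 and Jag2 had none of these letters in this window, and no gene of the 7 had CACGTG. All 250 bases of the Notch1 and Jag2 windows lay inside the deposited gene, so the bases before those genes were not searched. A match is a string of letters, and binding was not measured.

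Among the receptors, Notch2 was by far the most abundant per length and Notch1 the least. Notch2 (ENSMUSG00000027878, mm10 chromosome 3, 98013527 to 98150361, plus strand) is the receptor best known from granulosa cells. It had 92.2, 95.3 and 122 CPM in Il22r-/- replicates 1 to 3 and 148, 139.5 and 121 CPM in Il22r+/+ replicates 1 to 3. The genotypes overlapped, since Il22r-/- replicate 3 lay just above the lowest Il22r+/+ library. The means were 103 ± 16.2 CPM in Il22r-/- and 136 ± 13.9 CPM in Il22r+/+ (SD, n = 3 each). Notch2 fell by 0.40 ± 0.12 on the log2 scale (SE; edgeR quasi-likelihood adjusted p = 0.0173). Without Il22r-/- replicate 3 the log2 difference was -0.56 (adjusted p = 0.000131). The call was lost without Il22r-/- replicate 2, Il22r+/+ replicate 1 or Il22r+/+ replicate 2, at adjusted p of 0.062, 0.0802 and 0.0617, where the alternatives as a whole spanned 3.8e-05 to 0.0802.

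Notch3 (ENSMUSG00000038146, chromosome 17, 32120820 to 32166852, minus strand) is the receptor best known from pericytes and vascular smooth muscle. It had 7.71, 13.4 and 9.12 CPM in Il22r-/- and 18.1, 14.6 and 14.8 CPM in Il22r+/+. All 3 Il22r-/- libraries lay below all 3 Il22r+/+ libraries, replicate 2 of Il22r-/- coming closest. Notch3 averaged 10.1 ± 2.95 CPM in Il22r-/- and 15.8 ± 1.97 CPM in Il22r+/+, and fell by 0.65 ± 0.20 on the log2 scale (edgeR adjusted p = 0.0205). Leaving out Il22r-/- replicate 2 gave -0.93. The call was lost without Il22r+/+ replicate 1 (adjusted p = 0.092, the highest among alternatives that reached down to 0.000179). Gm17276, an antisense neighbour over 6.03% of the Notch3 exon length, averaged 1.42 CPM in Il22r-/- and 3.15 CPM in Il22r+/+. No source used here states whether counting used strand, so reads of the pair cannot be told apart.

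Of the receptors, only Notch1 was called higher in Il22r-/- cells. Notch1 (ENSMUSG00000026923, chromosome 2, 26457903 to 26516663, minus strand) was covered by 106, 128 and 99 reads in the Il22r-/- libraries and by 74, 78 and 61 in the Il22r+/+ libraries. As CPM these were 5.56, 6.82 and 6.49 in Il22r-/- and 4.32, 4.65 and 3.61 in Il22r+/+. The groups did not overlap, which 56.0% of all tested genes share, and which 4 of the 9 tested Notch genes showed. The log2 difference was 0.58 ± 0.19, a rise of 1.5-fold (edgeR adjusted p = 0.0268). This call was the least stable of the 5. It was lost without Il22r-/- replicate 2 (adjusted p = 0.105), without Il22r+/+ replicate 1 (0.0698) or 3 (0.1), and with limma on log2(FPKM + 1) or log2(FPKM + 0.1) (0.0841 and 0.0966). Its lowest adjusted p in any alternative was 0.0119. The antisense gene 0610009E02Rik covers 7.5% of the Notch1 exon length and averaged 0.803 CPM in Il22r-/- and 0.822 CPM in Il22r+/+.

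**Figure D2:**
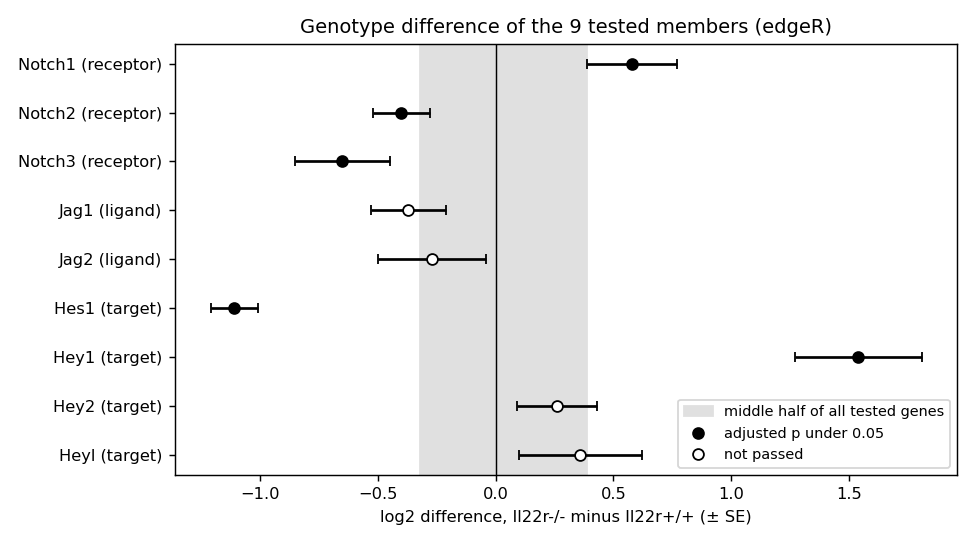
Log2 difference, Il22r-/- minus Il22r+/+ (x axis), with its SE for the 9 tested genes; filled points have an adjusted p under 0.05, and the grey band runs between the quartiles of all tested genes (-0.32 to 0.39). Hes1 at -1.11 and Hey1 at 1.54 lie farthest from 0, on opposite sides.

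None of the ligands was called. Jag1 (ENSMUSG00000027276, chromosome 2, 137081456 to 137116644, minus strand), a Jagged ligand that binds all the receptors above, had 30.0, 31.6 and 44.3 CPM in Il22r-/- and 45.4, 51.7 and 39.0 CPM in Il22r+/+. Only Il22r-/- replicate 3 reached the Il22r+/+ range. The log2 difference of -0.37 ± 0.16 did not pass (edgeR adjusted p = 0.0908), with means of 35.3 ± 7.85 CPM in Il22r-/- and 45.4 ± 6.38 CPM in Il22r+/+. It passed without Il22r-/- replicate 3, at -0.58 (adjusted p = 0.00102), and with no filter on low counts (0.00195), and its highest adjusted p in any alternative was 0.266. For Jag1 as for Notch2, Il22r-/- replicate 3 was the library nearest to Il22r+/+.

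Jag2 (ENSMUSG00000002799, chromosome 12, 112907819 to 112929776, minus strand), the other Jagged ligand, had 3.57, 6.29 and 5.05 CPM in Il22r-/- and 7.13, 5.30 and 5.50 CPM in Il22r+/+. The genotypes overlapped, and the log2 difference of -0.27 ± 0.23 did not pass (edgeR adjusted p = 0.38, and no lower than 0.156 in any alternative). Dll1 (ENSMUSG00000014773, chromosome 17, 15367354 to 15376872, minus strand), a Delta-type ligand, was covered by 6, 4 and 0 reads in the Il22r-/- libraries and by 3, 0 and 3 in the Il22r+/+ libraries. This was below the test's filter. Pooled, the 10 reads of 51.18 M in Il22r-/- and 6 reads of 52.65 M in Il22r+/+ gave a ratio of 1.71 (exact 95% interval 0.565 to 5.74, counting error only), so no difference was detectable at this depth. The log2 of that ratio, 0.78, was 0.09 without Il22r-/- replicate 1, 0.2 without Il22r+/+ replicate 2 and up to 1.28 without another library. A count of 0 allows up to 0.197 CPM in Il22r-/- replicate 3 and 0.179 CPM in Il22r+/+ replicate 2. A930024N18Rik lies antisense to 20.5% of the Dll1 exon length.

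Among the targets, Hes1 fell with little spread between replicates. Hes1 (ENSMUSG00000022528, chromosome 16, 30064384 to 30067796, plus strand) encodes a repressor that also acts on its own gene. It had 14.4, 14.1 and 15.0 CPM in Il22r-/- and 30.7, 30.7 and 32.5 CPM in Il22r+/+. Every Il22r-/- library lay far below every Il22r+/+ library. The means were 14.5 ± 0.483 CPM in Il22r-/- and 31.3 ± 1.07 CPM in Il22r+/+, and the log2 difference was -1.11 ± 0.10 (edgeR adjusted p = 9.03e-06). It was called in 15 of 15 alternatives, with log2 differences of -1.15 to -1.01. Among all tested genes, 13.3% had a larger difference in either direction.

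Hey1 moved the other way. Hey1 (ENSMUSG00000040289, chromosome 3, 8663359 to 8667256, minus strand) encodes a Hairy-related repressor that can pair with HES1. Its reads numbered 90, 88 and 56 in the Il22r-/- libraries and 29, 29 and 18 in the Il22r+/+ libraries. As CPM these were 4.72, 4.69 and 3.67 in Il22r-/- and 1.69, 1.73 and 1.06 in Il22r+/+. Replicate 3 was the lowest library within each genotype, and the genotypes did not overlap. Means were 4.36 ± 0.595 CPM in Il22r-/- and 1.5 ± 0.374 CPM in Il22r+/+, and the log2 difference was 1.54 ± 0.27 (edgeR adjusted p = 0.000888). It was called in each of the 14 alternatives that kept the gene, and 7.09% of tested genes had a larger difference. Hes1 and Hey1 were also the 2 of the 5 called genes that kept the call whichever library was left out.

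Hey2 and Heyl, which encode related repressors, had higher means in Il22r-/- but did not pass. Hey2 (ENSMUSG00000019789, chromosome 10, 30832359 to 30842801, minus strand) had 13.0, 12.9 and 16.4 CPM in Il22r-/- and 12.3, 9.30 and 13.6 CPM in Il22r+/+. The ranges overlapped, with a log2 difference of 0.26 ± 0.17 (edgeR adjusted p = 0.227, and no lower than 0.0946 in any alternative). Heyl (ENSMUSG00000032744, chromosome 4, 123233556 to 123249875, plus strand) had 9.65, 15.5 and 10.9 CPM in Il22r-/- and 7.71, 13.1 and 7.22 CPM in Il22r+/+. Replicate 2 was the highest library within each genotype, and the log2 difference was 0.36 ± 0.26 (edgeR adjusted p = 0.285). Heyl passed only without Il22r+/+ replicate 2, at 0.68 (adjusted p = 0.0406, against up to 0.742 in the other alternatives). Heyl lies 12.48 Mb from Il22ra1 on the same chromosome.

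**Figure D3:**
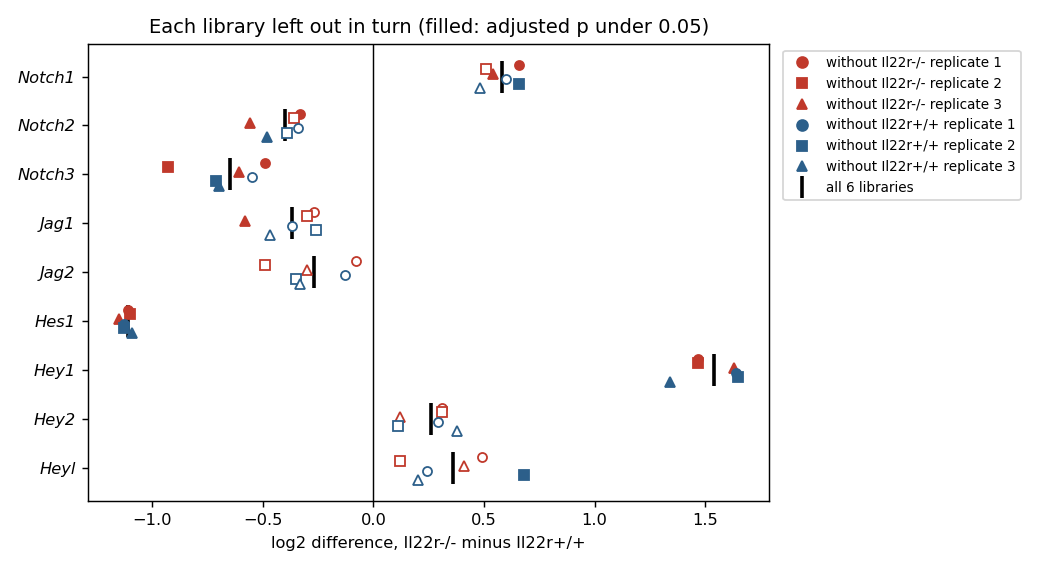
Log2 difference, Il22r-/- minus Il22r+/+ (x axis), of each tested gene with each library left out in turn (symbols; red for Il22r-/-, blue for Il22r+/+ libraries) and with all 6 (bar); filled symbols have an adjusted p under 0.05. The symbols of Hes1 (-1.15 to -1.09) and Hey1 (1.34 to 1.65) are all filled, those of Jag2 and Hey2 all open.

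Per length, the order of levels changed at its top. In Il22r-/- cells Notch2 came first at 9.67 ± 1.6 FPKM, followed by Hes1 at 7.20 ± 0.287 and Jag1 at 6.14 ± 1.42 FPKM, the ranges of the last pair overlapping. In Il22r+/+ cells Hes1 came first at 15.8 ± 0.563 FPKM, then Notch2 at 13.0 ± 1.32 and Jag1 at 8.01 ± 1.11 FPKM, with no overlap between neighbours. Below them in Il22r-/- cells stood Hey2, Heyl, Hey1, Notch3, Jag2, Notch1 and Dll1, in falling order, and Hey2 overlapped Heyl and Hey1 overlapped Notch3. In Il22r+/+ cells that order was Hey2, Notch3, Heyl, Jag2, Hey1, Notch1 and Dll1, and Notch3 overlapped both of its neighbours. Hey1 thus stood 6th of 10 in Il22r-/- cells, at 1.35 ± 0.174 FPKM, and 8th in Il22r+/+ cells, at 0.471 ± 0.117 FPKM. Notch1 was 9th in each genotype, at 0.447 ± 0.049 FPKM in Il22r-/- and 0.303 ± 0.038 FPKM in Il22r+/+.

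The make-up of the target group shifted, and that of the receptors and ligands kept its dominant gene. Hes1 made up 53.5%, 48.7% and 51.9% of the summed FPKM of the 4 targets in Il22r-/- and 76.2%, 74.6% and 77.3% in Il22r+/+. Hey1 took 10.9%, 10.1% and 7.92% in Il22r-/- against 2.62%, 2.62% and 1.58% in Il22r+/+. The shares of Hey2 and Heyl, neither of them called, were also larger in Il22r-/-. Shares within a library add up to a fixed whole, so the lower Hes1 by itself makes the other target shares larger. Hey2 held 22.1% ± 2.74 in Il22r-/- and 12.6% ± 2.3 in Il22r+/+, and Heyl 16.9% ± 3.89 and 9.05% ± 3.19. The ratio of Hes1 to Hey1 FPKM was 4.90, 4.81 and 6.55 in Il22r-/- and 29.0, 28.5 and 49.0 in Il22r+/+, so the lowest Il22r+/+ library lay far above the highest Il22r-/- one. The summed target FPKM was 14.0 ± 0.655 in Il22r-/- and 20.8 ± 0.48 in Il22r+/+. Of the receptor FPKM, Notch2 held 84.9% ± 3.80 in Il22r-/- and 84.8% ± 0.878 in Il22r+/+ (SD, n = 3 each). Notch1 held 3.95% ± 0.41 of it in Il22r-/- and 1.98% ± 0.162 in Il22r+/+. Jag1 held 88.7% ± 3.25 of the ligand FPKM in Il22r-/- and 89.7% ± 2.15 in Il22r+/+. These shares are descriptions without a test.

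**Figure D4:**
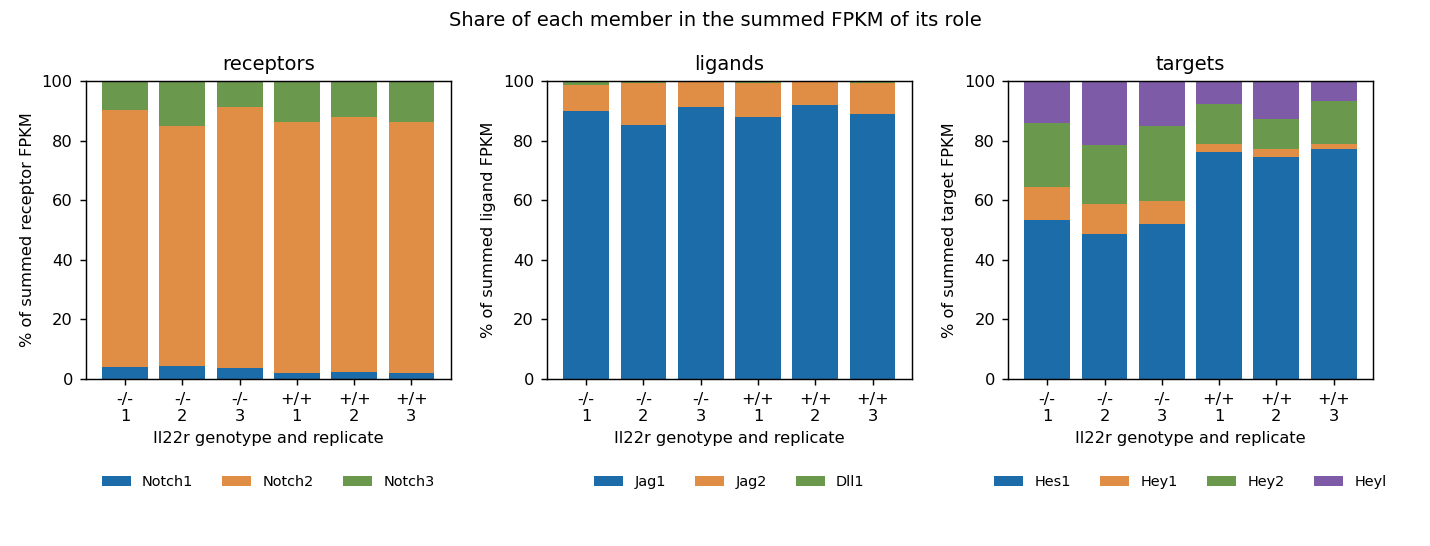
Share of each gene (y axis, % of summed FPKM of the 3 receptors, 3 ligands or 4 targets) in each library, Il22r-/- left and Il22r+/+ right. Hes1 takes 48.7% to 53.5% of target FPKM in Il22r-/- and 74.6% to 77.3% in Il22r+/+, while over all libraries Notch2 holds 80.6% to 87.7% of receptor FPKM and Jag1 85.1% to 92.1% of ligand FPKM.

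Other genes of the pathway, 72 listed by role, were tested in 62 cases, of which 6 were higher and 19 lower in Il22r-/-. This is 40.3% called, against 45.7% of all tested genes. Their median log2 difference was -0.12, against 0.03 over all tested genes. RBPJ, the DNA-binding partner of the receptor domain, was abundant and did not pass: Rbpj had 203, 244 and 301 CPM in Il22r-/- and 209.5, 212 and 211 CPM in Il22r+/+ (log2 difference 0.24 ± 0.12, edgeR adjusted p = 0.138). Of the tested nuclear complex and co-activator genes 3 of 9 rose and 1 fell, 44.4% called and near that background. The Mastermind co-activators Maml3 and Maml2 rose by log2 differences of 0.85 ± 0.18 and 0.65 ± 0.18, while Maml1 did not pass (-0.21 ± 0.11). The acetyltransferase Kat2b fell by 0.52 ± 0.08. Maml2 lost its call without Il22r+/+ replicate 1 or 3 and with limma on log2(FPKM + 1) (adjusted p = 0.0609, 0.0611 and 0.055).

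The largest differences in the pathway lay among the Deltex genes, which encode ubiquitin ligases that act on Notch receptors. Dtx1, itself a known Notch target in lymphocytes, had 0.629, 0.639 and 0.721 CPM in Il22r-/- and 5.37, 5.13 and 5.38 CPM in Il22r+/+. Dtx4 had 4.56, 2.98 and 3.61 CPM in Il22r-/- and 0.701, 0.298 and 0.296 CPM in Il22r+/+. In neither gene did the genotypes overlap. Dtx1 fell by 2.99 ± 0.25 on the log2 scale (edgeR adjusted p = 7.03e-06), and Dtx4 rose by 3.08 ± 0.38 (adjusted p = 0.0001). Numb, an endocytic inhibitor of Notch, fell by 0.52 ± 0.08 to 46.2 ± 3.29 CPM in Il22r-/-, against 66.0 ± 0.667 CPM in Il22r+/+. In the turnover and inhibition group, 1 of 10 rose and 4 fell, 50% called and near the 45.7% of all tested genes. Nrarp, a feedback inhibitor and direct Notch target, reached 3 reads in Il22r-/- replicate 3 and had none in the other libraries.

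**Figure D5:**
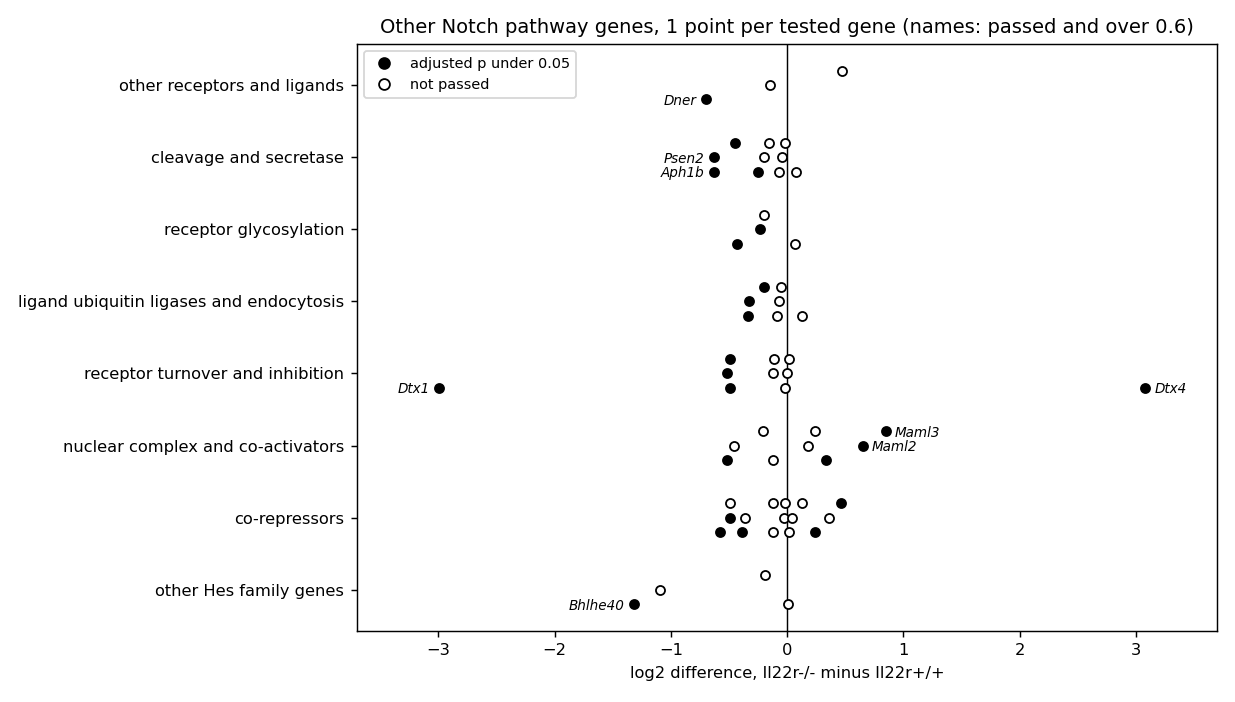
Log2 difference, Il22r-/- minus Il22r+/+ (x axis), of the 62 tested pathway genes by role (rows); filled points have an adjusted p under 0.05. Dtx1 (-2.99) and Dtx4 (3.08) lie at the 2 ends, and Bhlhe40 (-1.32, passed) and Hes7 (-1.09, not passed) are the other points more than 1 from 0.

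Of the cleavage genes 4 of 10 fell and none rose, 40.0% called against 45.7% of all tested genes. Among them were Aph1b and Psen2, subunits of gamma-secretase (log2 differences -0.63 ± 0.10 and -0.63 ± 0.11), and Furin, which cuts the receptor precursor (-0.45 ± 0.11). Adam10 and Adam17, the proteases of the first ligand-dependent cut, did not pass, at 0.08 ± 0.08 and -0.02 ± 0.07. Aph1b has a close copy in Aph1c (-0.07 ± 0.15, not passed), and how reads were split between them is not given. The shares called were 50% of 4 tested glycosylation genes and 42.9% of 7 genes for ligand ubiquitination and endocytosis, again near that background. In the glycosylation group Pofut1 and Poglut1, which add sugars to the receptor, fell (-0.43 ± 0.07 and -0.23 ± 0.07) and none rose. In the endocytosis group Mib2, Dnm2 and Epn1 fell (-0.34 ± 0.07, -0.33 ± 0.07 and -0.20 ± 0.08) and none rose. Poglut1 and Epn1 lost the call in 6 and 8 of 15 alternatives. Dner, a ligand known from neurons, fell (-0.70 ± 0.22, called in 9 of 14 alternatives), while Notch4 at 1.90 ± 0.245 CPM in Il22r-/- and 2.11 ± 0.495 CPM in Il22r+/+ did not pass.

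Of 15 co-repressors 10 did not pass, 2 were higher and 3 lower, which is 33.3% called against 45.7% of all tested genes. The Groucho-type co-repressor Tle3 fell (-0.58 ± 0.09), and the deacetylase Hdac2 rose (0.46 ± 0.07). Of the further Hes-type genes 4 were tested and 1 passed (25% called), and this was Bhlhe40, a circadian repressor outside the Hes family proper. It had 25.5, 38.3 and 34.7 CPM in Il22r-/- and 81.7, 80.0 and 83.7 CPM in Il22r+/+ (log2 difference -1.32 ± 0.13). Hes6 did not pass, at 45.7 ± 5.21 CPM in Il22r-/- and 52.3 ± 2.76 CPM in Il22r+/+. Hes5, another direct Notch target, had 0 reads in Il22r-/- and 1 in Il22r+/+, and Hes2, Hes3 and Helt had none in any library.

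Markers of other cell types moved with the genotype. Of 11 tested pericyte and smooth muscle markers 6 rose and 3 fell, 81.8% called against 45.7% of all tested genes. The list summed to 619.6, 976 and 940.2 CPM in Il22r-/- and 702, 784 and 678 CPM in Il22r+/+. Mcam, Acta2 and Mylk made up most of that sum, with log2 differences of -0.69, 0.74 and 0.32. Less abundant members moved further: the smooth muscle genes Actg2 and Myh11 rose by log2 differences of 4.97 and 4.29, the pericyte proteoglycan gene Cspg4 by 2.99 and the desmin gene Des by 2.02. Tagln and Lmod1 fell (-0.96 and -0.63), and Pdgfrb and Cnn1 did not pass (-0.64 and -0.19). The pericyte genes Abcc9 and Kcnj8, too low for the test, reached 1.92 and 0.799 CPM in Il22r-/- and 0.0596 and 0 CPM in Il22r+/+, and Rgs5 was near 0 in both genotypes, at most 0.213 CPM in Il22r-/- and 0.179 CPM in Il22r+/+. Of 5 tested endothelial markers 2 rose and 1 fell (60.0% called), with a summed level of 8.53 to 14.4 CPM in Il22r-/- and 7.88 to 9.58 CPM in Il22r+/+. Pecam1 and Kdr rose (1.42 and 2.52), Tek fell (-0.70), and Egfl7 and Esam did not pass (0.04 and 0.26). The 9 untested members all had a higher mean in Il22r-/-. Their highest level there was 2.02 CPM, that of the cadherin gene Cdh5 in replicate 2. In Il22r+/+ it was 0.237 CPM, that of Vwf in replicate 3. All 10 tested macrophage markers rose, against 23.6% of all tested genes called higher. This count is not independent of the filter. Adgre1, C1qa, C1qb, Mrc1 and Tyrobp had at most 0.532 CPM in Il22r+/+ and entered the test only through their Il22r-/- reads. The same was so for Cspg4 and Kdr. The macrophage list summed to 29.5 to 89.8 CPM in Il22r-/- and 9.12 to 11.7 CPM in Il22r+/+.

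Most mesothelial markers went the other way. Of 11 tested ovarian surface and mesothelial markers 7 fell and none rose, 63.6% called against 45.7% of all tested genes. The list summed to 193 to 208 CPM in Il22r-/- and 961 to 977 CPM in Il22r+/+. Krt7, Krt19, Muc16 and Wt1 did not pass (log2 differences 0.98, 0.67, 0.01 and -0.18). Lgals7, too low for the test, had 31 reads in Il22r-/- and 9 in Il22r+/+. Theca and stroma markers were mixed, 3 of 9 falling and 1 rising, 44.4% called against 45.7% of all tested genes. They summed to 363 to 519 CPM in Il22r-/- and 902 to 977 CPM in Il22r+/+. Dcn, Col3a1 and Star fell (log2 differences -4.50, -1.49 and -1.19), Col1a2 rose (5.24), and 5 did not pass. Tcf21, too low for the test, had 72 reads in Il22r-/- and 0 in Il22r+/+. The thecal genes Cyp17a1 and Insl3 were near 0 throughout, at no more than 0.0656 CPM in Il22r-/- and 0.179 CPM in Il22r+/+. Oocyte markers summed to at most 3.41 CPM in Il22r-/- and 1.75 CPM in Il22r+/+, and neither of the 2 tested passed. The part of any of these cells in the Notch gene differences was not tested.

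The genes most like Hes1 and Hey1 across the 6 libraries were found by Pearson correlation of log2 CPM over 12472 tested protein-coding genes. Because the libraries form 2 genotype clusters, a high r describes that split first of all: 19.0% of these genes had r over 0.9 with Hes1 and 13.3% with Hey1. Closest to Hes1 were Mxra8 and Dusp3 (r = 0.9993 each), a matrix-associated membrane protein and a dual-specificity phosphatase, and Rnf11 (r = 0.9992), a RING-finger protein. Mxra8 had 128, 124 and 136 CPM in Il22r-/- and 315, 327 and 332 CPM in Il22r+/+. Closest to Hey1 were Umps (r = 0.9975), an enzyme of pyrimidine synthesis, Psmb9 (r = 0.9965), an immunoproteasome subunit, and Mmp12 (r = 0.9963), a macrophage elastase. Psmb9 itself did not pass (log2 difference 0.59 ± 0.26, edgeR adjusted p = 0.0873). Mmp12 lay at 3.67 to 6.93 CPM in Il22r-/- and at 0 to 0.298 CPM in Il22r+/+. Umps had 75.1, 73.2 and 67.0 CPM in Il22r-/- and 43.6, 44.8 and 36.9 CPM in Il22r+/+, with replicate 3 the lowest in each genotype, as for Hey1.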

How the data were processed

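The authors deposited raw read counts for 55860 genes and FPKM values for the same genes, which divide each count by the gene's length and a factor for its library. Counting used featureCounts 1.5.0-p3, and mm10 is the build named, per the submitters' processing notes; for the aligner, strand setting and read filters nothing is stated there. Within each library the deposited FPKM followed from the counts and the deposited gene length with 1 constant. Genes with enough counts in either genotype (filterByExpr) were scaled by TMM and tested with the robust quasi-likelihood fit of edgeR 4.0.16, genotype being the only term. Alternatives used DESeq2 1.42.0, limma 3.58.1 (voom, and log2 FPKM with a pseudocount of 1 or 0.1), other scalings and filters, a replicate block and each library left out, in R 4.3.3. Simulated data served to test the edgeR step. The labels do not say whether libraries came from separate animals, so a p-value measures only how these 6 libraries vary, and that may be technical. No 2 libraries of a genotype were alike within sampling noise.

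Every one of the 10 genes is named; of the other pathway genes, up to 3 called ones per role with the largest difference were named, except 1 that is not reported here. Further genes named for their role (Rbpj, Maml1, Adam10, Adam17, Aph1c, Notch4, Hes2, Hes3, Hes5, Hes6, Hes7, Helt, Nrarp and single markers) were chosen after values were seen. For likeness, the 3 closest protein-coding genes to the called gene with the largest rise and the one with the largest fall were named, passing over symbols that are clone numbers. The genes and lists were chosen with earlier results of these data known. Exon overlaps came from GENCODE M21, whose coordinates matched the deposited ones for the named genes. Upstream sequences came from RefSeq.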

Additional observations from a re-analysis of the deposited data

How the results depend on the processing

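Over the alternatives, no tested gene of the 10 changed direction. Notch1 lost its call with limma on log2(FPKM + 1) and on log2(FPKM + 0.1), at log2 differences of 0.15 and 0.44, and Jag1 gained one with no filter on low counts (-0.37). With 1 library left out, the number of the 10 genes called ran from 2 to 6, against 5 with all libraries, and the lowest was without Il22r+/+ replicate 1. In the same fits the log2 difference ran from 0.48 to 0.66 for Notch1, from -0.56 to -0.33 for Notch2, from -0.93 to -0.49 for Notch3, from -0.58 to -0.26 for Jag1 and from 0.12 to 0.68 for Heyl. Fewer libraries were in those fits, and the cause of the losses was not tested otherwise. All tested genes called ran from 5411 to 8243, against 6962. Scaling by library size alone moved the median of all genes by 0.103 and the share of higher calls to 63.56%, against 51.58%. Hey1 could not be tested under the strict filter, which asks for a mean of 5 CPM. Replicate numbers did not pair the libraries (correlations of deviations 0.026, -0.0406 and -0.0278), and a replicate block called 6405 genes, including the same 5 of the 10. Shares by CPM per length equalled those by FPKM, which had to be so, since within a library the 2 measures differ by 1 constant only. Dll1 was limited by depth.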
